A study of Mus musculus with 6 samples.

Results

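The transcripts described here, Ptprz1, Ptn, Mdk, Ncam1 and Ncl, encode the pleiotrophin and midkine receptor, its 2 ligands, an adhesion partner and nucleolin. They were taken by symbol, and the 5 symbols matched 5 of the 31055 features of the count matrix. They were chosen by values from these same cells, in which Ptprz1 counts differed between smooth muscle subclusters, so the levels given here are a description and carry no test. Single cell RNA sequencing (10x Genomics 3' chemistry) covered the aorta from its root through the ascending segment in 4 control mice (Tgfbr1+/+) and 2 mice of the Loeys-Dietz syndrome (LDS) model (Tgfbr1M318R/+), which carry a missense change in a TGF-beta receptor. All 6 were females of 16 weeks on a 129 background, and the tissue was digested and sorted for viable nucleated cells (DCV+, PI-). Of the controls, 2 also carried Wnt2CRE and EGFP-L10a, a conditional tracer switched on by a Cre under the Wnt2 promoter and meant to mark cells derived from the cardiac neural crest.

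The labels give genotypes to mice, while each cell carries a barcode suffix from 1 to 6 that nothing pairs with a mouse. Each suffix is therefore called a library of unknown genotype, control and LDS cells are not compared, and each value is that of a library, or a median over libraries followed by the range.

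Ptprz1 is a receptor-type tyrosine phosphatase of the cell surface that carries chondroitin sulfate chains and is best known from glia and their precursors. Pleiotrophin (Ptn) and midkine (Mdk) are secreted heparin-binding growth factors that bind it and lower its phosphatase activity, which leaves substrates such as beta-catenin more phosphorylated. Ncam1, the neural cell adhesion molecule, is among the surface proteins that Ptprz1 binds, and nucleolin (Ncl), an abundant nucleolar protein of ribosome production, also binds both ligands at the cell surface.

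In mm10, Ptprz1 (ENSMUSG00000068748) lies on chromosome 6 from 22875502 to 23052916 on the plus strand. The other members are on the minus strand, Ptn (ENSMUSG00000029838) on chromosome 6 from 36714929 to 36810220, Mdk (ENSMUSG00000027239) on chromosome 2 from 91929805 to 91932297, Ncam1 (ENSMUSG00000039542) on chromosome 9 from 49502136 to 49798925 and Ncl (ENSMUSG00000026234) on chromosome 1 from 86344719 to 86359400. Ncam1 overlaps Gm11149 on the opposite strand, and small RNA genes lie within Ncl on its own strand. RefSeq promoters (GRCm38.p6, the assembly of mm10) were at hand for 3 of the 5 genes. The stretches upstream of Ptprz1 and Ptn are shown because these transcripts marked opposite cell classes. Each is given on the gene's strand, 5' to 3', at chr6:22875252-22875501 for Ptprz1 and chr6:36810221-36810429 for Ptn, and capitals mark the GC box GGGCGG on either strand.
Ptprz1: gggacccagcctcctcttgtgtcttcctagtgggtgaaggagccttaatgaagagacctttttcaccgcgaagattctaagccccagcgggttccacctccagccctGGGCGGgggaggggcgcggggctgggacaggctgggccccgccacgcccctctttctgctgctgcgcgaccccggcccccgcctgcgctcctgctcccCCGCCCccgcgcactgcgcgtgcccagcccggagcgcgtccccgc
Ptn: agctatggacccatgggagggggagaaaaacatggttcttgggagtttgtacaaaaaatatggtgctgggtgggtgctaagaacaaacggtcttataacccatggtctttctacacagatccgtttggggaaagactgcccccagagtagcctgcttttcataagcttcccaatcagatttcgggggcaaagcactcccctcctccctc
The 250 bases of Ptprz1 were 71.6% G and C, where the median over the 32851 promoters of the table was 52.4% in a window of this length. They held 2 GC boxes, which 32.7% of these promoters held at least once in such a window. The 209 bases of Ptn were 49.8% G and C and held none, where 26.5% of promoters held at least 1. The motif of GATA factors, searched as AGATAA on both strands like each motif here, was in neither stretch and in 9.99% of promoters in a window of the Ptprz1 length. The same held for the motif of TEAD factors, GGAATG, which 12.6% of promoters held. Neither stretch held a TATA box, searched as TATAAA and found in 12.4% of promoters, or an E-box, searched as CACGTG and found in 6.02%.

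Of 30716 barcodes, 24972 cells passed the filter, 1863 to 6395 a library, with a median of 5572 to 9838 UMIs (unique molecular identifiers, each 1 captured transcript) a cell. Markers named 10346 cells VSMC-like (vascular smooth muscle), 13429 fibroblast-like, 570 endothelial-like and 549 leukocyte-like. The 7 smooth muscle markers summed to 60902 to 67324 counts per 1000000 UMIs (CPM) in VSMC-like cells of a library and to 1273 to 5673 CPM in fibroblast-like cells. A further 61 cells with at least 3 glial markers were set apart, and 17 cells led by cardiomyocyte transcripts were left out. Libraries 1, 3, 4 and 5 shared 638 to 1101 barcode sequences in each pair and libraries 2 and 6 shared 244, against 2 to 8 in the other pairs. Among cells that passed, 76 sequences came from more than 1 library, and without these 152 cells the ratios between classes and subclusters and the co-detection of Ptprz1 kept their direction. UMIs of the GFP tracer reached 100 in 4 libraries, where the labels name 2 traced mice.

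Ptprz1 transcripts were found almost entirely in smooth muscle. VSMC-like cells held a median of 96.9% (95.6% to 98.5%) of the Ptprz1 UMIs of a library, and 43.8% of all UMIs. Levels in VSMC-like cells of libraries 1 to 6 were 212, 172, 151, 135, 175 and 256 CPM. In fibroblast-like cells they were 12.1, 1.41, 2.26, 1.54, 12.5 and 5.12 CPM. Every library value of VSMC-like cells lay above all of these. The median log2 ratio of VSMC-like over fibroblast-like cells was 5.84 (3.80 to 6.89). It was lowest in libraries 1 and 5, which had the most Ptprz1 in fibroblast-like cells. In the same libraries the smooth muscle markers were also highest in fibroblast-like cells, 3616 and 5673 CPM, and VSMC-like cells were 51.3% and 58.9% of all cells, and the part of these in the ratios was not tested.

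With each cell thinned to 3000 UMIs, a Ptprz1 UMI was present in 31.5% (30.6% to 32.5%) of VSMC-like cells, with the 95% exact binomial interval in brackets, which like all intervals here covers counting error only. Without thinning the share was 49.1%. Leukocyte-like cells, taken as the background, gave 1.11% (0.363% to 2.58%), and fibroblast-like cells gave 0.777% (0.629% to 0.949%), which is not above it. Median depths were 7205 UMIs in VSMC-like, 6130.0 in fibroblast-like and 5168 in leukocyte-like cells. A high doublet score (the top 5% of each library) was found in 19.7% of leukocyte-like cells. In fibroblast-like and VSMC-like cells it was found in 4.71% and 4.11%. The part of doublets in the leukocyte-like background was not tested. Over all 570 endothelial-like cells, 8 Ptprz1 UMIs were counted.

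The ligands were found in another class. Fibroblast-like cells held a median of 95.9% (85.5% to 98.2%) of the Ptn UMIs and 95.6% (93.9% to 97.4%) of the Mdk UMIs. Ptn was at 280.5, 365, 154, 381, 238 and 509.8 CPM in fibroblast-like cells of libraries 1 to 6. In VSMC-like cells Ptn was at 2.42, 7.71, 12.3, 18.7, 7.24 and 1.69 CPM. Library 3 was lowest and library 6 highest among fibroblast-like cells, and all of these values lay above those of VSMC-like cells. The median log2 ratio of VSMC-like over fibroblast-like cells was -5.30 (-8.19 to -3.64) for Ptn. Mdk was at 97.1, 134, 118, 107, 76.6 and 226 CPM in fibroblast-like cells, again highest in library 6, and at 5.64 CPM (2.38 to 9.32) in VSMC-like cells. Its median log2 ratio was -4.55 (-5.60 to -3.84).

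At 3000 UMIs, Ptn was detected in 16.7% (16.0% to 17.3%) of fibroblast-like cells, 1.22% (1.01% to 1.45%) of VSMC-like cells and 2.004% (0.921% to 3.77%) of leukocyte-like cells. For Mdk these shares were 24.0% (23.2% to 24.8%), 1.44% (1.21% to 1.70%) and 1.78% (0.772% to 3.48%). Neither ligand was above the leukocyte-like background in VSMC-like cells as a whole. Of the Ptn UMIs of leukocyte-like clusters 1, 2 and 3, 59.1% of 22, 0% of 25 and 100% of 55 lay in cells with a high doublet score. The part of these in the background was not tested.

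Ncam1 was highest where the receptor was, with some transcript in each class. A median of 87.6% (84.0% to 94.0%) of its UMIs lay in VSMC-like cells and 11.8% in fibroblast-like cells. Levels in VSMC-like cells of libraries 1 to 6 were 472, 441, 482, 470.4, 299 and 333 CPM, lowest in libraries 5 and 6. In fibroblast-like cells Ncam1 was at 46.3 CPM (36.8 to 50.0), and the median log2 ratio was 3.36 (2.62 to 3.58). At 3000 UMIs it was detected in 60.4% (59.5% to 61.4%) of VSMC-like cells, 8.92% (8.42% to 9.44%) of fibroblast-like cells and 3.34% (1.88% to 5.45%) of leukocyte-like cells. Ncl was present throughout, at 204 CPM (186 to 274) in VSMC-like, 193 CPM (172 to 233) in fibroblast-like, 251 CPM (227 to 300.4) in endothelial-like and 278 CPM (224 to 379) in leukocyte-like cells, ranges that overlap from each class to the next. The log2 ratio of VSMC-like over fibroblast-like cells for Ncl was 0.13 (-0.03 to 0.29), positive in 5 of 6 libraries.

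All 5 transcripts reached 10 CPM in at least 1 of these classes. A gene was called where its log2 ratio had the same sign in every library and a median past 1 in size. By this rule Ptprz1 and Ncam1 were higher and Ptn and Mdk lower in VSMC-like cells, while it called 9.31% of 8732 genes higher and 13.6% lower.

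**Figure D1:**
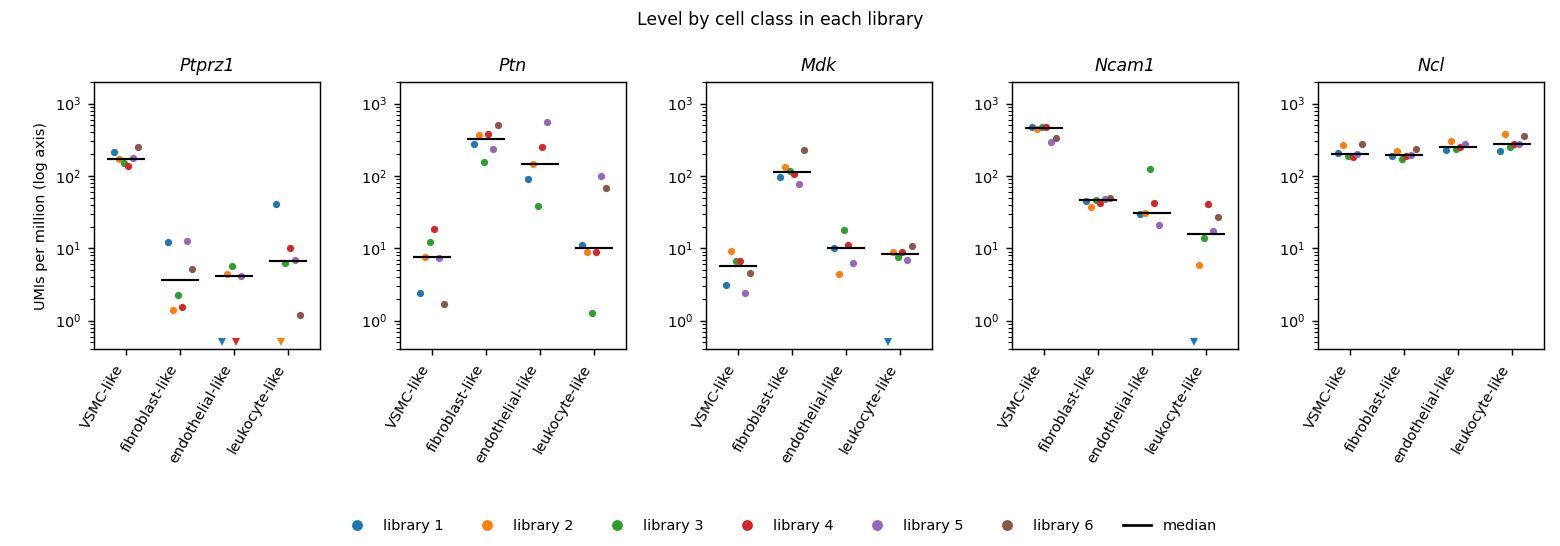
CPM on a log axis for each transcript in 4 cell classes, with 1 point for each library of at least 20 cells and a black line at the median; triangles mark libraries with 0 UMIs, drawn at 0.5. Ptprz1 and Ncam1 are highest in VSMC-like cells (medians 173 and 456 CPM), Ptn and Mdk in fibroblast-like cells (323 and 113 CPM), and Ncl lies between 193 and 278 CPM in all 4.

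To ask whether the receptor and its partners differ within smooth muscle, VSMC-like cells were clustered again with the 150 genes of the marker and pathway lists left out. The VSMC2-like subcluster (1701 cells, a median of 17.7% of VSMC-like cells, 11.2% to 21.3%) was named by more Enpep and Notch3 and less Tes than the VSMC1-like subcluster (8645 cells), so Ptprz1 took part neither in the clustering nor in the naming. In the study, these subclusters follow the axis from the aortic root (VSMC2) to the ascending aorta (VSMC1). It related them to this axis by transcripts known from its earlier work. Of these, Tes and Ptprz1 are described as rising with distance from the root, and Enpep and Notch3 as falling. A lower Ptprz1 in VSMC2 was therefore already part of the study's description.

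Ptprz1 was at 231, 204, 166, 159, 197 and 298 CPM in VSMC1-like cells of libraries 1 to 6. In VSMC2-like cells it was at 35.1, 47.7, 62.7, 58.4, 44.8 and 75.2 CPM. The library values of the groups did not overlap. The log2 ratio, taken as VSMC2-like over VSMC1-like here and below, had a median of -2.04 (-2.72 to -1.40). At 3000 UMIs, a Ptprz1 UMI was present in 35.8% (34.7% to 36.8%) of VSMC1-like cells and 10.3% (8.87% to 11.9%) of VSMC2-like cells, against 1.11% of leukocyte-like cells. Ncam1 was at 143 CPM (63.1 to 173) in VSMC2-like and 515 CPM (340.5 to 560.4) in VSMC1-like cells, a log2 ratio of -1.86 (-2.57 to -1.67). Ncl was at 223 and 202 CPM, a log2 ratio of 0.09 (-0.01 to 0.17). Ptprz1, Ncam1 and Ncl passed the level filter, and of these 3 members 2 were lower and 0 higher, where the rule called 2.32% of 7702 genes lower and 2.41% higher. The members were chosen with this contrast known, and nothing is read from that count.

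Summed over all VSMC-like cells, Ptn was at 8.38 CPM and Mdk at 5.02 CPM, under the level filter of 10 CPM, which is applied to this sum, so neither entered the count. Ptn was at 10.6, 29.5, 77.2, 53.1, 29.0 and 3.53 CPM in VSMC2-like cells and at 1.79 CPM (1.25 to 8.27) in VSMC1-like cells, a log2 ratio of 2.90 (1.41 to 5.57). These transcripts sat in few cells. Of the 476 Ptn UMIs of VSMC2-like cells, 67.0% lay in 26 cells with 5 or more, and 55.3% in cells with a high doublet score (the top 5% of each library). Mdk went from a median of 4.58 to 10.1 CPM, a log2 ratio of 1.09 (0.62 to 1.62), and 54.2% of its 131 UMIs in VSMC2-like cells lay in cells with a high doublet score. Without smooth muscle subtype 6, a subtype of 320 cells rich in such cells, the Mdk log2 ratio was -0.22 and that of Ptn 2.06, while Ptprz1 had -2.20 and Ncam1 -2.31.

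At a finer resolution VSMC-like cells fell into 7 subtypes, numbered by size and described by leading genes outside the lists. Subtype 1 (4021 cells) was led by Igfbp2, Des and Myoz2, and subtype 2 (2893 cells) by the immediate early genes Fos and Fosb with Socs3. Subtype 3 (1540 cells, 1384 of them VSMC2-like) was led by Pgam2, Thbs1 and Olfr558. Subtype 4 (983 cells) was led by Gm26870, Gm26699 and Myo9b, and had a median depth of 4528 UMIs and a mitochondrial share of 7.10%, against 8388 UMIs and 4.19% in subtype 1. Subtype 5 (342 cells) was led by the antigen presentation genes Cd74, H2-Aa and H2-Eb1, subtype 6 (320 cells) by Cygb, Clec3b and Dcn, and subtype 7 (247 cells) by Prrx2, Sfrp2 and Adamtsl1. The 7 pericyte markers, which include Rgs5, summed to 5683 CPM in subtype 7 and 477 CPM in subtype 1. The sum does not show how the markers share it, and no cell type is read from it. In subtype 6, 53.4% of cells had a high doublet score, against 0.610% to 6.62% in the other subtypes, and the fibroblast markers summed to 7425 CPM against 1604 to 3228 CPM.

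In the order of their medians, Ptprz1 was at 269.7 CPM (232 to 504) in subtype 4, 218 CPM (193 to 309) in subtype 1 and 179.6 CPM (109 to 262) in subtype 2. It was at 129 CPM (81.9 to 188) in subtype 7, 110.3 CPM (48.3 to 127) in subtype 5, 78.1 CPM (38.3 to 117) in subtype 6 and 43.5 CPM (36.9 to 68.9) in subtype 3. Neighbours in this order overlapped over libraries, while subtypes 1 and 3 did not. Within libraries, the log2 ratio of subtype 3 over subtype 1 was -2.33 (-2.48 to -2.09). In subtypes 6 and 7 the log2 ratios to subtype 1 were -1.30 (-2.55 to -0.79) and -1.16 (-1.26 to -0.35), over 5 libraries each. In subtype 5 it was -0.93 (-2.06 to -0.91), negative in all 5 libraries with at least 20 cells but short of the limit. Subtypes 2 and 4 differed less from subtype 1, by -0.32 (-0.83 to -0.12) and 0.36 (0.05 to 0.71). At 3000 UMIs the shares of cells with a Ptprz1 UMI ran from 48.0% in subtype 4 and 39.1% in subtype 1 to 9.33% in subtype 3.

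Ncam1 and Ptprz1 parted in subtype 7. There Ncam1 was at 954 CPM (862 to 1190.0) against 494 CPM (343 to 541) in subtype 1, a log2 ratio of 1.14 (0.88 to 1.67), whereas that of Ptprz1 was below 0 in all 5 libraries. At 3000 UMIs, 89.7% (85.1% to 93.3%) of subtype 7 cells had an Ncam1 UMI and 25.6% (20.2% to 31.7%) a Ptprz1 UMI. In subtype 5, Ncam1 was at 474 CPM (216 to 548), a log2 ratio of -0.15 (-0.67 to 0.09) with both signs among libraries. Both transcripts were lowest in subtype 3, where Ncam1 was at 122 CPM (58.8 to 146) with a log2 ratio of -2.12 (-2.54 to -1.69). In subtype 6 the Ncam1 log2 ratio was -1.04 (-1.17 to -0.81). The medians of Ncl ran from 169 to 227 CPM over the 7 subtypes.

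Beside these calls, the rule called 2.86% of the 7702 genes lower and 3.10% higher in subtype 3 than in subtype 1. The shares of genes lower and higher were 3.25% and 4.40% in subtype 6, 1.82% and 2.08% in subtype 7, 0.506% and 1.03% in subtype 5, 0.0260% and 1.08% in subtype 2, and 0.987% and 0.195% in subtype 4.

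Within smooth muscle, Ptn and Mdk were highest in subtype 6, at 108 CPM (28.3 to 166) and 26.6 CPM (13.7 to 54.2). There 78.5% of the 312 Ptn UMIs and 70.8% of the 96 Mdk UMIs lay in cells with a high doublet score, and the part of doublets in these values was not tested. In subtype 3 Ptn was at 13.2 CPM (3.74 to 27.9), and 42.9% of its 170 UMIs came from 9 cells. The Ptn level of subtype 5 in library 4 rested on 1 cell, with 43 of 47 UMIs. Mdk in subtype 7 was at 25.8 CPM (6.33 to 35.6) against 2.66 CPM (1.79 to 7.06) in subtype 1, a log2 ratio of 2.66 (1.76 to 3.88) over 5 libraries. Mdk was under the level filter, so it was not called. Its 44 UMIs there, 1 to 10 a library, were spread over 33 cells, at most 4 in any, and 4.55% lay in cells with a high doublet score. Of these UMIs, 9 came from library 2, whose 19 cells were too few for a level or ratio.

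**Figure D2:**
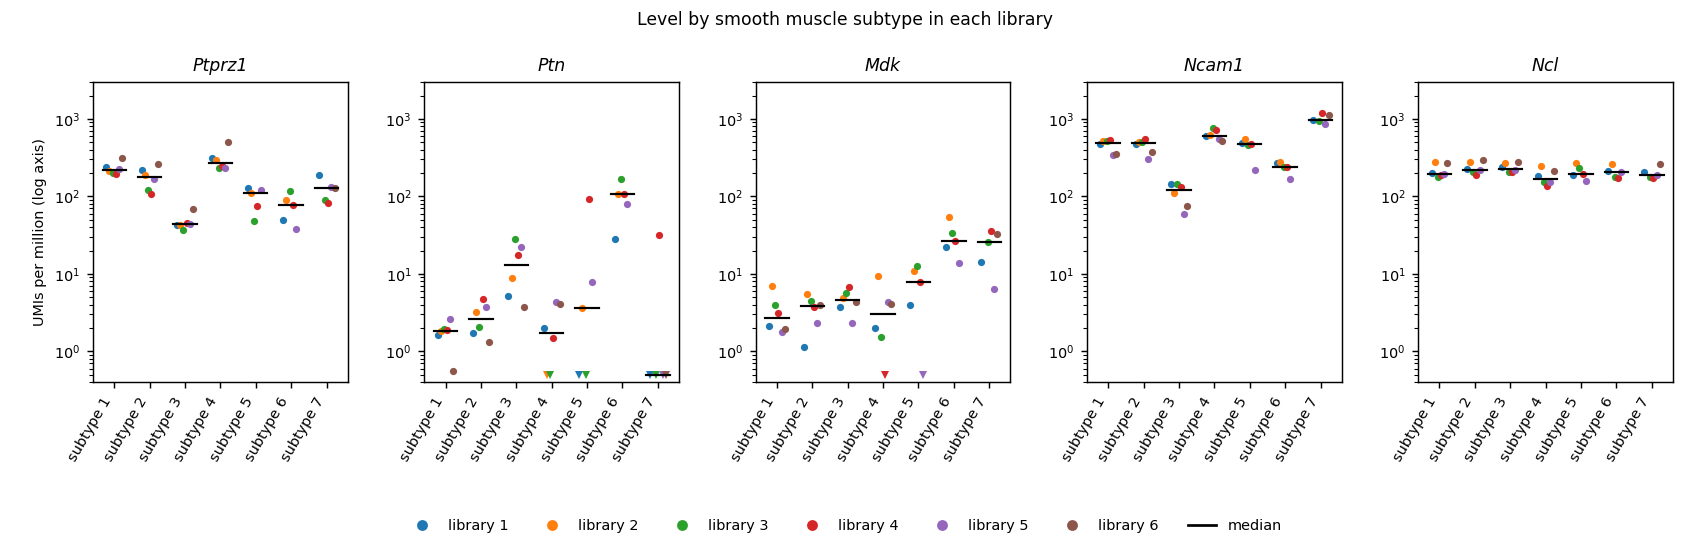
CPM on a log axis for each transcript in the 7 smooth muscle subtypes, with 1 point for each library of at least 20 cells and a black line at the median; triangles mark libraries with 0 UMIs, drawn at 0.5. Ptprz1 and Ncam1 are lowest in subtype 3 (43.5 and 122 CPM), Ncam1 is highest in subtype 7 (954 CPM), and Ptn and Mdk are highest in subtype 6 (108 and 26.6 CPM).

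The ligands differed from each other among the 6 fibroblast-like clusters. No gene was left out of the clustering of all cells, so the ligands could take part in forming these clusters. Ptn was itself among the leading genes of clusters 5 and 6, which are named here by genes outside the lists. Its levels there are therefore not independent of the clustering. Cluster 6, led by Igfbp3, Gucy1a1 and Fhl2, had Ptn at 2976, 2313, 1923, 2390.5 and 2367 CPM in libraries 1 to 5, where it held at least 20 cells. Cluster 5, led by Coch, Nrgn and Prss35, had Ptn at 1163, 1193, 385, 2113, 1119.6 and 3613 CPM in libraries 1 to 6, lowest in library 3. Cluster 2, led by Hhip, Pex5l and F3, lay below the range of each other cluster, at 10.8 CPM (3.31 to 20.6). Clusters 1, 3 and 4 had medians of 133, 236 and 199 CPM and overlapped each other. Clusters 5 and 6 together held a median of 70.3% (44.7% to 83.8%) of the Ptn UMIs of fibroblast-like cells, and 10.2% (6.19% to 17.9%) of all their UMIs. The share of cluster 5 alone was 7.05% in one library and 77.5% in another. At 3000 UMIs, Ptn was detected in 76.6% (72.8% to 80.1%) of cluster 6 cells, 73.3% (69.9% to 76.5%) of cluster 5 cells and 1.89% (1.49% to 2.36%) of cluster 2 cells.

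The medians of Mdk spanned a narrower range than those of Ptn, and the order of the clusters was not the same. It was at 56.6 CPM (37.4 to 92.2) in cluster 1, 70.1 CPM (30.0 to 151) in cluster 5, 109 CPM (49.2 to 136) in cluster 3, 162 CPM (129 to 341) in cluster 2, 179 CPM (142 to 272) in cluster 6 and 196 CPM (161 to 281) in cluster 4. Cluster 2, where Ptn was lowest, held a median of 45.6% (32.8% to 64.9%) of the Mdk UMIs of fibroblast-like cells against 1.05% (0.280% to 1.81%) of the Ptn UMIs, from 31.3% of all their UMIs. At 3000 UMIs, Mdk was detected in 33.6% (32.1% to 35.0%) of cluster 2 cells and 19.6% (16.8% to 22.7%) of cluster 5 cells. The medians of Ptprz1 stayed between 1.57 and 6.26 CPM in the 6 clusters. Ncam1 was at 113 CPM (102 to 154) in cluster 5, 91.4 CPM (43.1 to 141) in cluster 3 and 17.8 CPM (12.01 to 41.3) in cluster 1.

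Outside fibroblast-like cells, Ptn was found in an endothelial-like cluster of 234 cells led by Ccl21a, Mmrn1 and Nts, which include transcripts of lymphatic endothelium. It was at 47.2, 724 and 1233 CPM in libraries 3, 4 and 5, which had at least 20 such cells, low in the first and high in the others. Of its 591 UMIs, 89.2% lay in 35 cells with 5 or more and 9.81% in cells with a high doublet score. In the other endothelial-like cluster, of 336 cells led by Fabp4, Cd36 and Gpihbp1, Ptn was at 37.9 CPM (20.3 to 177), with 80.4% of 112 UMIs in 3 cells. Ncam1 was at 102 CPM (34.2 to 167) in the first of these clusters and 25.3 CPM (12.3 to 44.0) in the other.

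The 61 cells with glial markers held 32 Ptprz1 UMIs, 117 CPM over all libraries (95% exact Poisson interval 80.1 to 165). For Ncam1 they held 76 UMIs, 278 CPM (219 to 348), and for Ptn 91 UMIs, 333 CPM (268 to 409). Libraries added unequally to these sums. Library 5 had 23 of the 61 cells, and 1.46% of its Ptn UMIs lay in them, against a median of 0.165% over libraries. For all UMIs these shares were 0.326% and 0.118%. Smooth muscle markers summed to 10435 CPM in these cells, against 64975 CPM in VSMC-like cells. By library the sum ran from 760 CPM to 19182.5 CPM, highest in library 5, and the part of these markers in the Ptprz1 count was not tested.

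**Figure D3:**
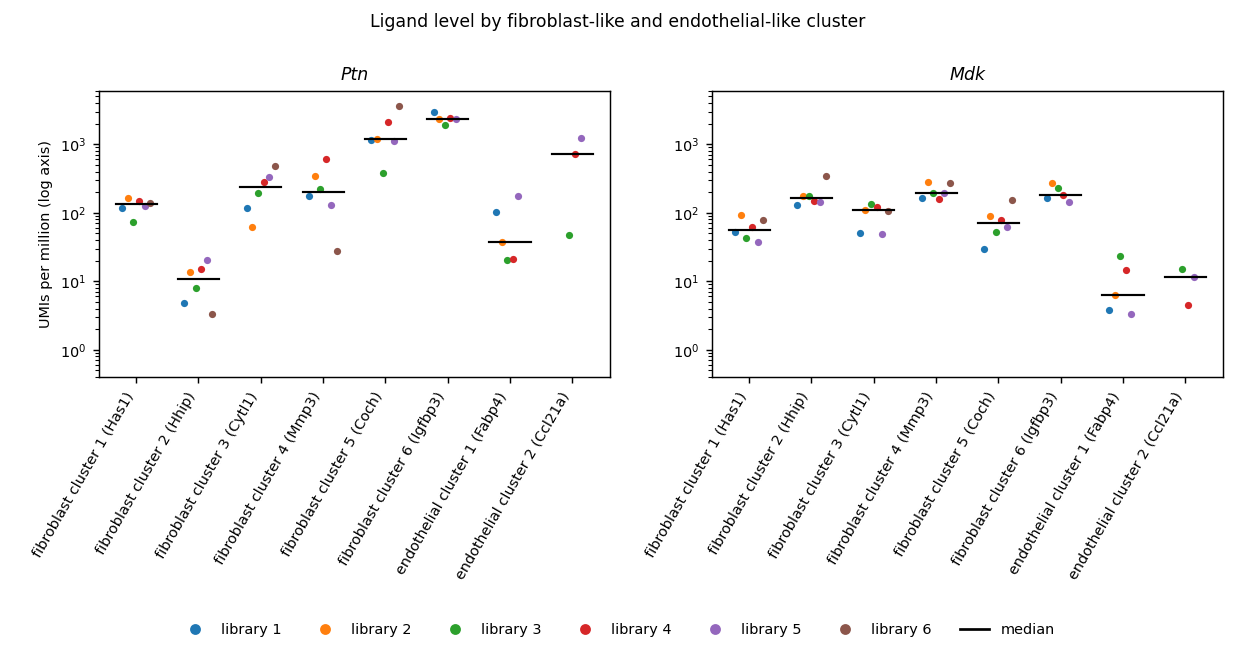
CPM of Ptn and Mdk on a log axis in the fibroblast-like and endothelial-like clusters, with 1 point for each library of at least 20 cells and a black line at the median. Among fibroblast-like clusters the medians of Ptn span 10.8 to 2367 CPM and those of Mdk 56.6 to 196 CPM.

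Single cells of 1 subtype varied in Ptprz1 beyond Poisson counting. If each cell of subtype 1 in a library had the same mean, a median of 53.5% of cells would lack a Ptprz1 UMI at 3000 UMIs, and 60.4% did. The median excess was 7.75 percentage points (6.91 to 10.49 over 6 libraries) for Ptprz1 and 5.96 (4.97 to 8.42) for Ncam1. For Ncl it was 0.65 (-0.13 to 2.16), with both signs among libraries. The variance of the thinned counts over their mean, which is 1 for Poisson counts, was 1.59 for Ptprz1 (1.48 to 1.76), 1.38 for Ncam1 (1.30 to 1.61) and 1.03 for Ncl (1.01 to 1.16) in subtype 1.

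Co-detection was the number of cells with a UMI of both genes at 3000 UMIs, over the number expected from the product of their shares within a library. For Ptprz1 with Ncam1 the median was 1.13 (1.07 to 1.19) in VSMC-like cells, above 1 in all 6 libraries, with 2089 cells holding both. Within VSMC1-like cells it was 1.01 (1.01 to 1.08), with 2034 cells holding both where 1969 were expected. Its log2, 0.020, turned to -0.022 when cells were thinned to 2000 UMIs. In subtype 1 the ratio for Ncam1 was 1.01 (0.994 to 1.03), above 1 in 5 of 6 libraries. In VSMC2-like cells it was 1.41 (1.205 to 1.68) over 3 libraries, with 55 cells holding both where 39.4 were expected. In subtype 5 it was 1.14 (1.03 to 1.43), above 1 in all 5 libraries, and in subtype 3 it was 1.43 over 2 libraries. In subtypes 2 and 4 it was 1.01 and 0.996, each above 1 in 3 of 6 libraries. In subtype 7 it was 0.875, above 1 in 2 of 5 libraries. Ptprz1 with Ncl gave 1.02 (0.919 to 1.08) in VSMC-like and 1.02 (0.945 to 1.06) in VSMC1-like cells, with libraries on both sides of 1. Of VSMC-like cells with an Ncam1 UMI, a median of 36.7% had a Ptprz1 UMI, against 24.4% of those without. Ptprz1 was found with Mdk in 30 VSMC-like cells where 43.1 were expected, and with Ptn in 22 where 36.2 were expected. Within VSMC1-like cells it was found with Mdk in 27 cells where 35.5 were expected and with Ptn in 18 where 18.8 were expected, and within subtype 1 with Mdk in 17 where 15.4 were expected.

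Besides Ptprz1, the study follows Tes, Enpep, Notch3 and Gata4 along the aorta. In VSMC-like cells, the medians for these 4 genes lay further from 1 than those for Ncam1 and Ncl. In VSMC1-like cells those for Tes, Gata4 and Enpep did so. With Tes, a focal adhesion protein, the ratio was 1.33 (1.24 to 1.44) in VSMC-like and 1.16 (1.11 to 1.25) in VSMC1-like cells, above 1 in all 6 libraries. The ratio cannot exceed 1 over the share of cells with the partner, which limits it more for the often detected Ncam1. Of VSMC-like cells with a Tes UMI, a median of 44.6% had a Ptprz1 UMI, against 28.6% of those without. For Ncam1 these shares were 36.7% and 24.4%. With Gata4, a zinc finger transcription factor, it was 0.547 (0.363 to 0.766) and 0.707 (0.505 to 0.887), below 1 in all 6 libraries. Within subtype 1 the Gata4 ratio was 0.667 (0.555 to 0.844) over 4 libraries. Within subtype 2 it was 1.03 (0.823 to 1.16) over 3 libraries, with 38 cells holding both where 42.1 were expected. With Enpep, an aminopeptidase, the ratio was 0.549 (0.461 to 0.717) in VSMC-like and 0.754 (0.617 to 1.09) in VSMC1-like cells. With Notch3, a receptor of smooth muscle, it was 0.600 (0.506 to 0.858) in VSMC-like and 0.981 (0.825 to 1.78) in VSMC1-like cells, with 3 of 6 libraries above 1 in the latter. Tes, Enpep and Notch3 were used to name the subclusters and were left out of the clustering.

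**Figure D4:**
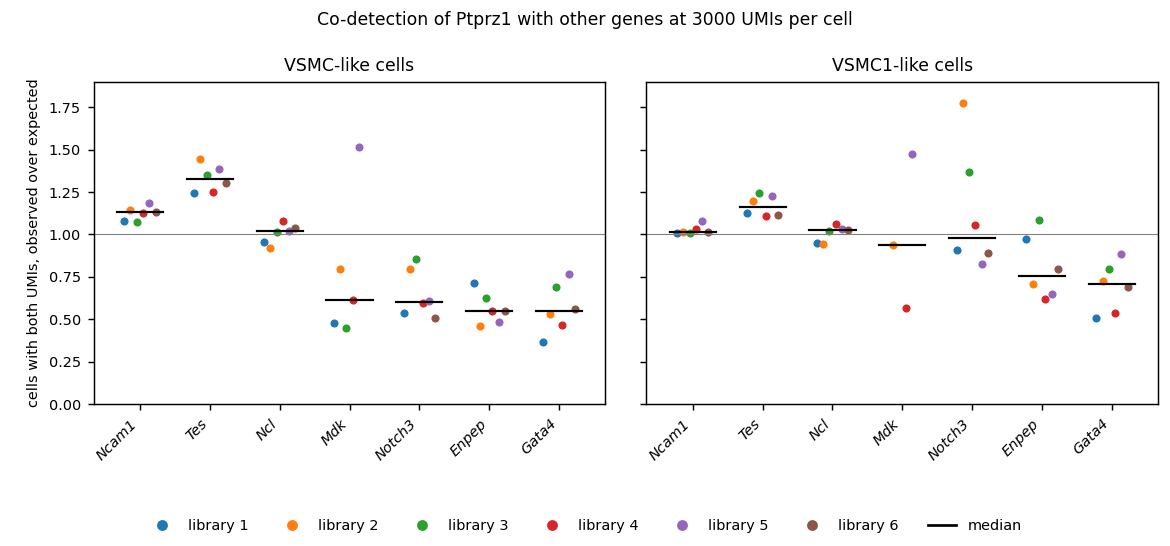
Observed over expected number of cells with a UMI of both Ptprz1 and another gene at 3000 UMIs a cell, with 1 point for each library with at least 5 expected cells, a line at each median and a reference line at 1. In VSMC1-like cells Ncam1 and Ncl lie near 1 (1.01 and 1.02), Tes above it (1.16) and Gata4 below it (0.707).

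The wider pathway was described from lists over VSMC2-like against VSMC1-like cells, where the median log2 ratio of all 7702 genes was -0.06. Of 20 receptors and co-receptors of the ligands, 14 reached 10 CPM, 1 was higher, 2 were lower and 11 were neither, with a median of 0.01. Over all genes 2.41% were higher and 2.32% lower, and the count of this list includes Ptprz1, which was chosen for this contrast. The higher one was Sdc3, a heparan sulfate proteoglycan of the cell surface, at 49.6 CPM in VSMC2-like and 15.8 CPM in VSMC1-like cells, a log2 ratio of 1.68 (0.76 to 2.05). Sdc1, of the same syndecan family, had 0.98 (0.69 to 1.19). The lower ones were Ptprz1 and Vcan, the matrix proteoglycan versican, with -1.56 (-3.43 to -0.27). Of 13 adhesion and matrix partners of Ptprz1, 2 reached 10 CPM, Ncam1 and the matrix protein Tnc (tenascin C), and both were lower, Tnc from 13.1 to 3.47 CPM with a log2 ratio of -1.77 (-3.31 to -0.40). Ncam1 is a member, chosen with this contrast known, so nothing is read from this count. Without subtype 6 the ratios were 1.59 for Sdc3, -3.62 for Vcan and -2.51 for Tnc.

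Of 9 substrates and scaffolds of Ptprz1, 7 reached 10 CPM and 0 were called, from Ctnnb1 (beta-catenin) at -0.29 (-0.36 to -0.10) and the scaffold Dlg4 at -0.09 (-0.26 to 0.35) to the scaffold Magi1 at 0.56 (0.18 to 0.79). Of 20 receptor tyrosine phosphatases in the matrix, 8 reached 10 CPM and Ptprz1 was the 1 called. Ptprz1 was chosen for this contrast, so nothing is read from this count. The next lowest was Ptprj at -0.89 (-1.76 to -0.51), and the highest were Ptprd at 0.20 (-0.56 to 0.46) and Ptprg at 0.40 (0.16 to 0.91). Without subtype 6, Ptprj was called lower as well, at -1.12, and so was the integrin subunit Itga4 among the receptors, at -1.34. Of 6 genes of the Ncam family, its polysialylation and its co-receptors, 2 reached 10 CPM, Ncam1 and Fgfr1, and Fgfr1 had 0.10 (-0.13 to 0.21). Of 21 genes of chondroitin sulfate synthesis, 11 reached 10 CPM and 0 were called, with a median of -0.25 and with Chst12 at -0.45 (-0.67 to -0.14) and Chpf2 at -0.43 (-0.84 to 0.21) as the lowest.

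Between VSMC-like and fibroblast-like cells, 4 of the 14 receptors and co-receptors that reached 10 CPM were higher in VSMC-like cells and 5 lower, where the rule called 9.31% of all 8732 genes higher and 13.6% lower. The higher ones were Ptprz1 and the integrin subunits Itga4 at 3.17 (2.67 to 4.62), Itgb3 at 2.88 (1.80 to 3.14) and Itgb1 at 2.02 (1.88 to 2.25). The lower ones were Nrp1 at -3.17 (-3.64 to -2.68), Lrp1 at -2.06 (-2.27 to -1.81), Vcan at -1.97, Sdc1 at -1.58 and Sdc3 at -1.47. Of 10 receptor tyrosine phosphatases, Ptprz1 was higher, and Ptprb at -3.89 and Ptprg at -1.29 were lower. Ptprz1, a member chosen from values of these same cells, is in this count and in that of the receptors. Of 14 genes of chondroitin sulfate synthesis, 2 were lower, Chpf at -1.17 and Dse at -1.18. Among 8 substrates and scaffolds, Magi1 was higher at 1.38, and Fyn at -2.97 and Pxn at -1.18 were lower. Tnc was higher at 1.12.

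**Figure D5:**
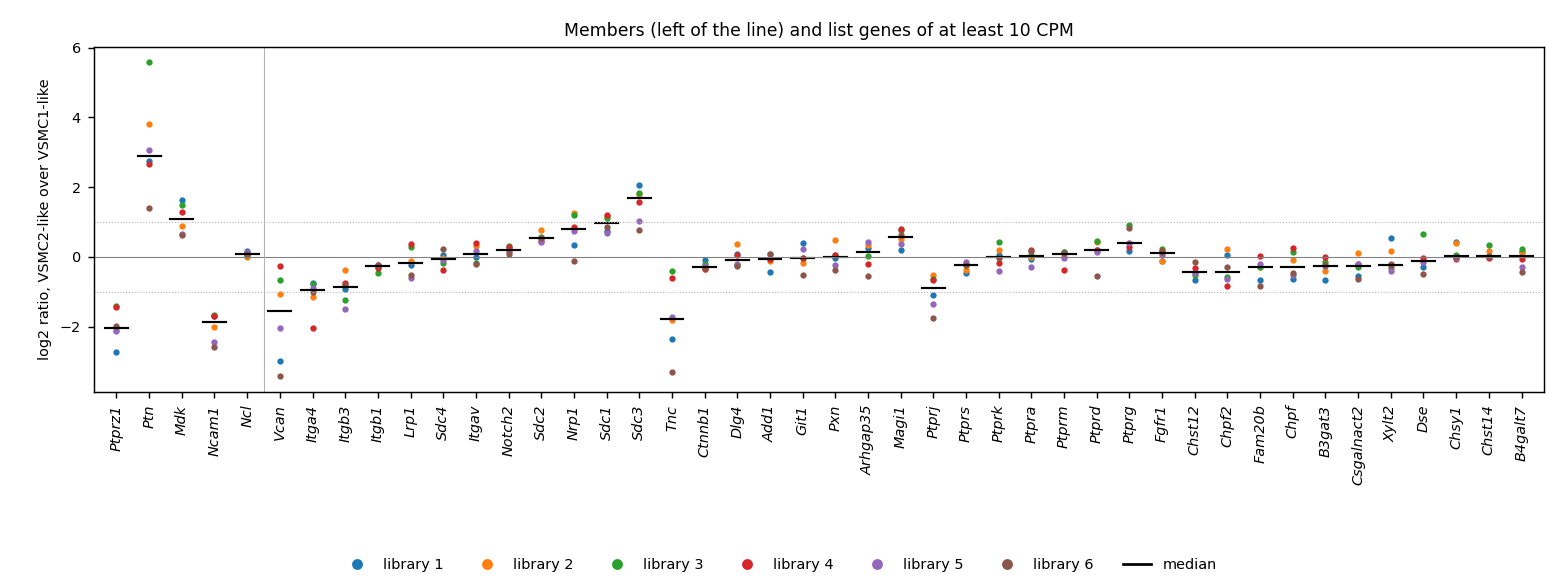
Log2 ratios, VSMC2-like over VSMC1-like cells, of the 5 members and for list genes of at least 10 CPM, with 1 point a library and a line at each median. Ptprz1 (-2.04), Ncam1 (-1.86), Vcan (-1.56) and Tnc (-1.77) lie below -1, and Sdc3 (1.68) lies above 1, as do Ptn (2.90) and Mdk (1.09), which are under the level filter.

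The transcripts most alike in pattern were taken by Pearson's r of log2 CPM over 91 profiles, each a subtype or cluster in 1 library with at least 20 cells. These profiles share libraries and cells of 1 class, so r is a description. For Ptprz1 they were Flna, Myom1, Cnn1, E030013I19Rik and Mylk4, with r from 0.91 to 0.92. Over the smooth muscle subtypes alone these had r from 0.45 for Cnn1 to 0.81 for Mylk4. For Ncam1 they were Endod1, Fblim1, Qsox1, Kank1 and Dsp (0.87 to 0.89), with r from 0.34 for Fblim1 to 0.83 for Dsp over the smooth muscle subtypes alone. For Ptn they were Igfbp3, Ptk7, Bok, Gpm6b and Itih5 (0.80 to 0.83), and for Mdk Cpxm1, Gpr39, Serpinf1, D630003M21Rik and Pdgfra (0.88 to 0.92). Ptprz1 and Ncam1 had r = 0.75 over all profiles and 0.60 over the smooth muscle subtypes, and Ptn and Mdk had 0.64 and 0.46.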

How the data were processed

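Cells of 6 mice were sequenced, each mouse processed separately. Per the submitters' notes the authors aligned reads to mm10 and aggregated the libraries with Cell Ranger 6 (the matrix header names 4.0.0), and they deposited 1 matrix of UMI counts, not normalized. Whether depth was equalised at aggregation is not given in the sources used here. Cells with over 1000 and under 5000 genes, over 1500 and under 25000 UMIs and under 20% mitochondrial UMIs were kept. UMIs in kept cells came to 18218282 to 38105145 a library. Cells were clustered in Seurat 5.3.0 (R 4.3.3) after sctransform 0.4.2 with 3000 variable genes, 30 principal components and integration of libraries, at resolution 0.25 for all cells, and 0.05 and 0.2 within VSMC-like cells. List genes were left out only within VSMC-like cells, and no gene was left out of the clustering of all cells. The 5% of cells with the highest scrublet score (scanpy 1.11.5) in each library were marked as having a high doublet score and kept.

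The counts were summed per library and class or subtype and divided by all UMIs of that sum (CPM), with 0.5 UMI added for log2 ratios, for units of at least 20 cells in a library. A filter of 10 CPM over the sum of all libraries was applied. No p-value was computed, since the members were chosen from values of these same cells. The members, gene lists and markers were chosen with earlier results of these data known. Named genes were the members, the list genes with the lowest and highest ratios, those called, and the 5 most alike in pattern. Barcode suffixes could not be matched to mice, so all genotype comparisons were left out. Alternatives were other depths, doublet removal, other clusterings, leaving out each library and no filter. Those without the shared barcodes and without subtype 6 were chosen after seeing the data.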

Additional observations from a re-analysis of the deposited data

How the results depend on the processing

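Of 280 values recomputed for 33 results, 259 lay within the spread over libraries of the value reported, or within 1.5 times for a count. In 8 the sign changed, 1 for the Mdk ratio without subtype 6 and the others for co-detection with Mdk, Ncam1, Ncl or Notch3, whose log2 lay within 0.1 of 0 before and after. With cells of a high doublet score removed, the VSMC2-like over VSMC1-like log2 ratio of Mdk was 0.61 against 1.09, and that of Ptprz1 was -2.29 against -2.04. Without subtype 6, an alternative chosen after seeing the data, it was -0.22 for Mdk and -2.31 for Ncam1. The cause of these shifts was not tested. The log2 ratio of the highest over the lowest subtype median with at least 5 instead of at least 7 subclusters was 2.24 for Ptprz1, 1.45 for Mdk and 2.08 for Ncam1, against 2.62, 3.10 and 2.96. For Ptn it was 3.97 with 0.5 CPM added, and with at least 7 subclusters the lowest subtype has a median of 0, so that value is set by the amount added and no fold is given. That of Ptprz1 was 2.97 with cells of a high doublet score removed. Co-detection with Ptprz1 is given as log2. At 2000 UMIs that of Ncam1 in VSMC1-like cells turned from 0.020 to -0.022, that of Tes was 0.28 in VSMC-like and 0.12 in VSMC1-like cells, and that of Enpep in VSMC-like cells was -1.26. At 5000 UMIs that of Tes in VSMC-like cells was 0.31. Without thinning it was -0.57 for Enpep, -0.36 for Notch3 and -0.45 for Gata4 in VSMC-like cells and -0.17 for Gata4 in VSMC1-like cells. Without a level filter, which tests more genes, 1411 genes were called higher and 3311 lower in VSMC-like than fibroblast-like cells, against 813 and 1188, and 645 higher and 496 lower in VSMC2-like than VSMC1-like cells, against 186 and 179.

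With all genes kept in the clustering, and with log-normalized counts without integration, both at resolutions added after seeing the data, Ptprz1 had -2.04 and -2.01 between the subclusters. Leaving out each library in turn gave -2.10 to -1.99 for it, and gave -0.14 to 0.07 for its co-detection with Notch3 in VSMC1-like cells. No paired analysis was possible because the barcode suffixes cannot be matched to the replicate numbers of the labels. These replicate numbers run within each group, and the labels do not state that they pair control with LDS mice. The ratios between classes and subclusters were taken within each library. Few smooth muscle cells held a UMI of either ligand, and units of under 20 cells in a library gave no level.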
